A study of Saccharomyces cerevisiae with 6 samples.

Results

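Cytosolic ribosomes of the yeast Saccharomyces cerevisiae were followed here through the genes for the proteins of their large (60S) subunit. The members were the rows of the deposited expression table named RPL with a number and an optional A or B, together with the stalk genes RPP0, RPP1A, RPP1B, RPP2A and RPP2B. They made up 75 of 5625 rows and carried 63 names. Of these, 51 names had 1 row each and are summarised below, and 12 names had 2 rows each (24 rows), which are described apart. The reference genome of S288C lists 81 such names, and 18 of them were not analysed here under their own name. All 75 rows had a mean above the filter of 1 FPKM (read fragments scaled to gene length and library size).

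The 3 strains differ in where their genes of glycolysis sit. Per the labels, IMX605 carries them at a single locus on chromosome V and IMX606 at a single locus on chromosome IX, whereas IMX372 keeps the major paralogs at their native loci. As background from the published strain descriptions, IMX372, titled MG in the labels, is a minimal-glycolysis strain of the CEN.PK family without the minor glycolytic paralogs, and both single-locus strains were built from it. Polyadenylated RNA came from aerobic bioreactor cultures, with 2 libraries per strain from biological duplicates: R12 and R7 for IMX605, R13 and R8 for IMX606, and DSE001 and DSE002 for IMX372. No change to a ribosomal protein gene is named in the labels. The labels trace the IMX372 libraries to an earlier deposit, so that strain and library set cannot be told apart in either comparison with IMX372, and both comparisons share those libraries.

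Ribosomal protein genes are among the most strongly transcribed genes of growing yeast, and their output follows growth rate through the TOR and protein kinase A pathways. Most exist as A and B paralogs left by a whole-genome duplication, which in most pairs encode identical or nearly identical proteins. For such a pair, the sum over both copies sets the supply of the protein. The large subunit holds the peptidyl transferase centre and the exit tunnel, and its stalk of acidic P proteins recruits the translation factors. Rap1, Fhl1, Ifh1 and Sfp1 bind or act at most of the promoters.

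The libraries held 18754741 to 21370278 reads on genes, except DSE001 with 70510681, and 3 reads, for a length of 1 kb, were worth 0.0425 to 0.160 FPKM. The members took 10.7% to 12.3% of the reads on genes. Genes of general stress, on a list of 8, summed to 1223 and 1740 FPKM in IMX605 and to 1028 and 1158 in IMX606, against 303 and 269 in IMX372, and 8 of 8 rose in both comparisons (limma adjusted p under 0.05). Over all genes tested, 15.0% were higher in IMX605 and 11.1% in IMX606. The part of this stress difference in any result below was not tested. The a-cell receptor gene STE2 lay at 452 to 744 FPKM and the alpha-cell receptor gene STE3 at 4.63 to 9.11. The 4 mitochondrial transcripts with a row summed to at most 1.57 FPKM in any library.

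The coding sequences of paralogs differ to very unequal extents. Stretches of 90 coding bases, counted from base 181 of the A paralog in the S288C reference (R64, RefSeq), show the range over the pairs on which the results below turn. Capitals mark the bases at which the paralogs differ, and each sequence runs 5′ to 3′ on the coding strand. The RPL4 stretches, chrII:300346-300435 (plus strand) and chrIV:472033-472122 (plus strand), have 0 differences. The RPL26 stretches, chrXII:819939-820028 (plus strand) and chrVII:556469-556558 (plus strand), have 3. The RPL16 stretches, chrIX:98857-98946 (minus strand) and chrXIV:494286-494375 (minus strand), have 9.
RPL4A: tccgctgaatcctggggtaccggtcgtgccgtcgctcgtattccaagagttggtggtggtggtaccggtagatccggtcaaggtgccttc
RPL4B: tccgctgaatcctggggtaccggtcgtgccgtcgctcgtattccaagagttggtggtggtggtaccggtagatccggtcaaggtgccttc
RPL16A: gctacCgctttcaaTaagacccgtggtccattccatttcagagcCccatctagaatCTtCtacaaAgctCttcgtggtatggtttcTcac
RPL16B: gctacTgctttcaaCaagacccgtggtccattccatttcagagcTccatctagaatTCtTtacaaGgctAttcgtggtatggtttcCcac
RPL26A: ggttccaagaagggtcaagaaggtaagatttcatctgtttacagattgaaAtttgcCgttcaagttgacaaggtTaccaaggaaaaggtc
RPL26B: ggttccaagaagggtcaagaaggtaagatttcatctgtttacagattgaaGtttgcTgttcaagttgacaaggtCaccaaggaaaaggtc
Over the whole coding sequence the RPL4 paralogs were 98.9% identical with 12 differing bases and a longest identical run of 422. RPL26 paralogs were 93.2% identical with a longest run of 62, and RPL16 paralogs 86.5% with a longest run of 29. The stalk pairs lay lowest of the 21 pairs with 1 row per name, at 68.9% for RPP1 and 73.6% for RPP2. Their A and B proteins were only 59.6% (RPP1) and 61.8% (RPP2) identical, and those of RPL22 84.4%. Ratios and sums of these pairs are thus not those of equivalent copies.

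Mean levels over the 6 libraries ran from 249.6 to 8746 FPKM among the 51 single-row members, with a median of 1632 FPKM. RPL38, for a small surface protein, RPL10 and the stalk gene RPP2B were highest, at 8746, 6427 and 6169 FPKM. RPL7B, RPL22B and RPL14B were lowest, at 249.6, 360.2 and 619.9 FPKM, and each is the weaker copy of its pair. The deposited length is the whole gene span, introns included, and 32 of the 51 members have a coding intron. Levels are therefore compared between genes per kilobase of coding sequence, where the members ran from 538 to 9024 with a median of 3213. On that scale RPL30, whose protein controls the splicing of its own transcript, led at 9024, ahead of RPL38 at 8746 and RPL36B at 6680. RPL22B read 328 and 330.3 FPKM in IMX605, 335 and 358 in IMX606, and 364 and 447 in IMX372, and RPL38 9361 and 8478 in IMX605, 9449 and 9022 in IMX606, and 7325 and 8841 in IMX372.

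Against IMX372, more members fell than rose in both single-locus strains, and those that rose came as whole pairs. In IMX605, 8 of the 51 rose, 19 fell and 24 did not pass (limma on log2(FPKM + 1), Benjamini-Hochberg adjusted p under 0.05). Over all 5459 genes tested, 30.0% were called, 15.0% higher and 15.0% lower. The counts for IMX606 were 8 higher, 18 lower and 25 not called, beside 23.9% of all genes, 11.1% higher and 12.8% lower. The median log2 difference of the members was -0.19 in IMX605 and -0.16 in IMX606, against -0.03 and -0.06 over all genes. With median-of-ratios scaling, 9 members fell in IMX606 and the median was -0.11, and the share of higher genes among all calls there moved from 46.3% to 57.1%. Without R12, DSE001 or DSE002 the rises in IMX605 numbered 4, 4 and 5, and without DSE001 or DSE002 the falls in IMX606 numbered 8 and 10, with 5 rises without DSE001. In IMX605, both libraries lay above both IMX372 libraries for 15 members and below for 28 members, where all genes gave 31.5% above and 37.8% below. The same counts, 15 and 28, were found in IMX606, where all genes gave 25.7% and 36.7%.

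**Figure D1:**
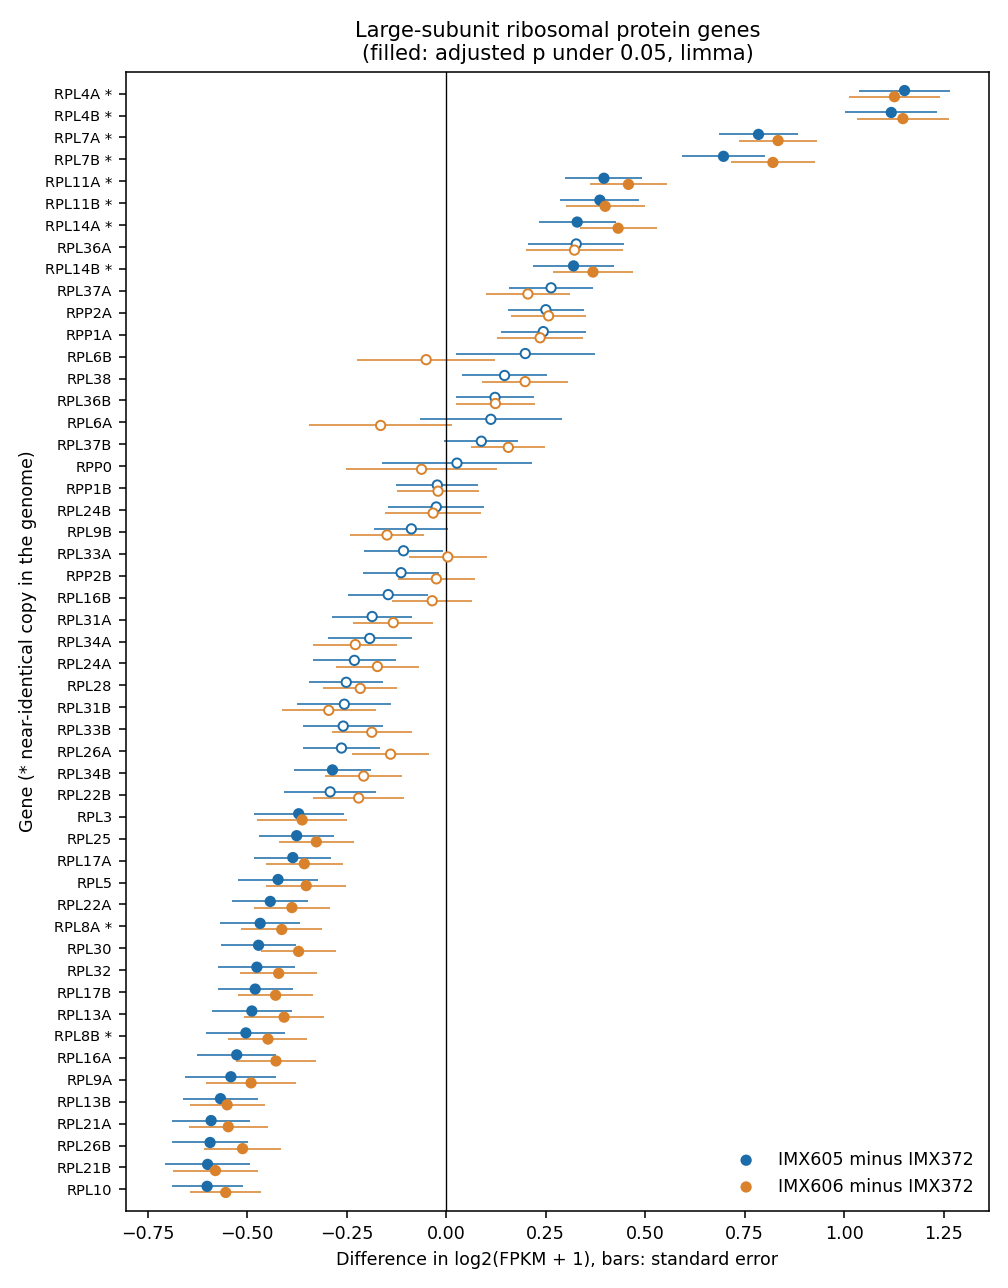
Difference in log2(FPKM + 1) from IMX372 for the 51 single-row genes, ordered by the value in IMX605, with IMX605 in blue, IMX606 in orange, bars for the standard error and filled points for an adjusted p under 0.05; asterisks mark genes with a near-identical copy in the S288C reference. RPL4A and RPL4B stand at the top near 1.15, and RPL10 at the bottom at -0.60 and -0.55.

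The 8 rises were those of RPL4A and RPL4B, RPL7A and RPL7B, RPL11A and RPL11B, and RPL14A and RPL14B. RPL4 sends a long loop into the wall of the exit tunnel. RPL4A (chromosome II, 289828 to 290916 in the deposited coordinates on CEN.PK113-7D) read 1828 and 1628 FPKM in IMX605, 1789.7 and 1605 in IMX606, and 843 and 714 in IMX372. All 4 single-locus libraries lay above both IMX372 libraries. The differences were 1.15 (SE 0.11, limma adjusted p = 2.37e-05) in IMX605 and 1.13 (SE 0.11, limma adjusted p = 2.90e-05) in IMX606, on the log2(FPKM + 1) scale that holds for all differences below. RPL4B read 996 and 890.4 FPKM in IMX605, 1029 and 898 in IMX606, and 466 and 403 in IMX372, with differences of 1.12 and 1.15. RPL7 rose for both copies. RPL7A read 1328 and 1195 FPKM in IMX605, 1337 and 1271 in IMX606, and 716 and 747 in IMX372, and changed by 0.78 (SE 0.10, limma adjusted p = 0.00014) in IMX605 and 0.83 (SE 0.10, limma adjusted p = 9.87e-05) in IMX606. RPL7B read 280.1 and 273 FPKM in IMX605, 301 and 302 in IMX606, and 159 and 182 in IMX372, a change of 0.70 and 0.82. Again no single-locus library overlapped with IMX372.

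RPL11, which joins the ribosome with RPL5 and the 5S rRNA, and RPL14, a structural protein, rose by less. RPL11A read 2087 and 1935 FPKM in IMX605, 2189 and 2009 in IMX606, and 1493 and 1561 in IMX372, and changed by 0.40 (SE 0.10, limma adjusted p = 0.0104) in IMX605 and 0.46 (SE 0.10, limma adjusted p = 0.00582) in IMX606. RPL14B read 691 and 622 FPKM in IMX605, 698 and 658 in IMX606, and 512 and 538 in IMX372, and changed by 0.32 (SE 0.10, limma adjusted p = 0.0329) in IMX605 and 0.37 (SE 0.10, limma adjusted p = 0.0216) in IMX606. The groups of both genes were apart. Differences were 0.39 and 0.40 for RPL11B and 0.33 and 0.43 for RPL14A. The IMX605 call of RPL11A ended without R12 (0.34) or DSE001 (0.36), and that of RPL11B without R12 (0.31), DSE001 (0.37) or DSE002 (0.40). In IMX606, RPL11B lost its call without R13 (0.34), DSE001 (0.38) or DSE002 (0.41). RPL14A lost its IMX605 call without R12 (0.25), DSE001 (0.31) or DSE002 (0.35) or with no trend (0.33), and its IMX606 call without DSE001 (0.41). For RPL14B the IMX605 call ended without any 1 of R12 (0.24), R7 (0.40), DSE001 (0.29) and DSE002 (0.35), and with equal sums (0.28), quantile normalization (0.28) or no trend (0.32). In IMX606 it ended without R13 (0.33), DSE001 (0.33) or DSE002 (0.40). The rises of RPL4 and RPL7 kept their calls under every alternative run.

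These 8 genes were also the single-row members that share the most exact sequence with their paralog. Of their coding words of 50 bases, 72.7% (RPL4), 60.9% (RPL11), 56.9% (RPL7) and 42.1% (RPL14) occur in another gene of S288C as well, and no other single-row member exceeds 20%. Among the 18 members with a share above 0 and up to 20%, 0 rose and 9 fell in IMX605, and 0 rose and 8 fell in IMX606. Among the 25 with no shared word, 0 rose and 10 fell in either strain. With a looser criterion, 95% identity over 200 bases, 10 members had a near-identical copy, of which 8 rose and 2 fell, RPL8A and RPL8B, in both strains. Of the 41 others, 0 rose and 17 fell in IMX605 (median -0.26), and 0 rose and 16 fell in IMX606 (median -0.21), or 8 with median-of-ratios scaling and 8 without DSE001 or DSE002. Without DSE001, 0 of the 10 with a copy fell in IMX606. The count of 0 is limma's: at an unadjusted p under 0.05, 4 of the 41 were higher in IMX605 and 3 in IMX606, and voom on recovered reads called 3 (RPL36A, RPL37A and RPP2A) and 1 (RPL36A). Leaving out R13 or R8, or fitting only the strains compared, also called RPL36A in IMX605, and quantile normalization called RPL37A. In IMX606, RPL36A was called without R8. The sources used here do not give how reads that match both copies were counted. They also do not give whether the IMX372 libraries had the same read length and settings as the others. The values in these pairs, of single copies or summed, and their differences from IMX372 are uncertain for these reasons. The part of shared sequence in the differences was not tested.

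**Figure D2:**
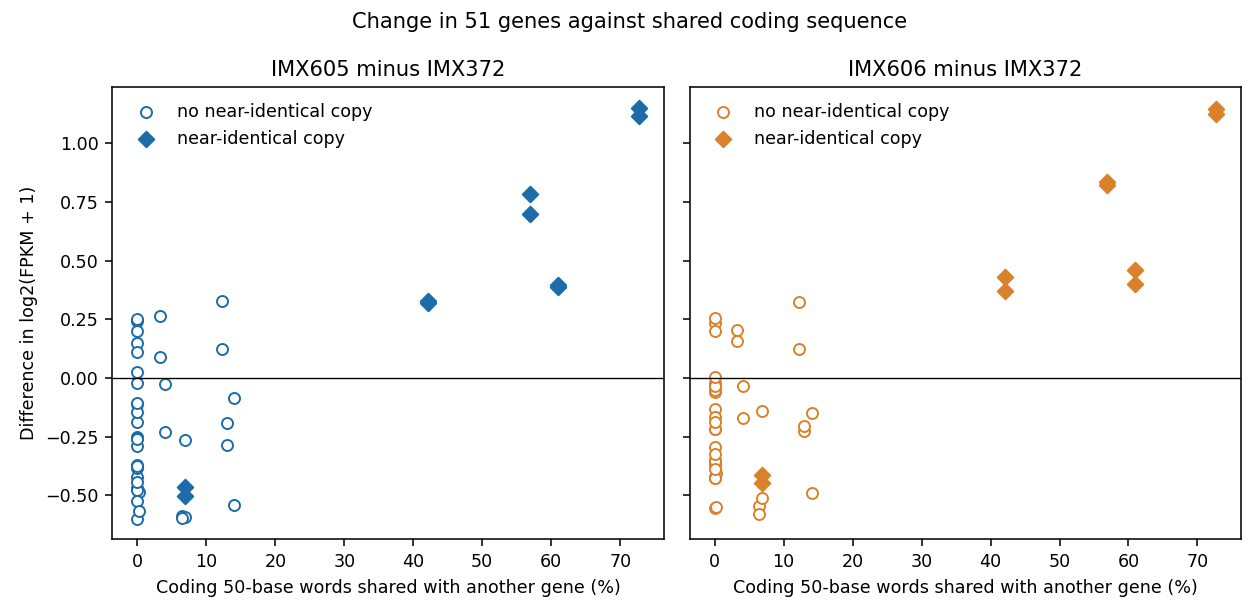
Difference in log2(FPKM + 1) from IMX372 against the percentage of a gene's coding 50-base words that occur in another gene, for the 51 single-row genes in IMX605 (left) and IMX606 (right), with filled diamonds for the 10 genes with a near-identical copy. The 8 genes above 20% all lie above 0, and most genes near 0% lie below it.

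Across the 51 genes, which are not independent replicates and include both copies of each pair, Pearson's r between the shared percentage and the log2 difference was 0.77 in IMX605 and 0.80 in IMX606, and Spearman's rho was 0.37 and 0.36. The genes outside the ribosomal lists are given beside them. Of 57 with a near-identical copy, 27 rose and 7 fell in IMX605 (median 0.37), and 25 rose and 6 fell in IMX606 (median 0.30). Of 4523 without one, 586 rose and 649 fell in IMX605 (median -0.05), and 403 and 558 in IMX606 (median -0.07). The small-subunit genes went otherwise: of 4 with a near-identical copy, 0 rose and 2 fell in either strain (medians -0.36 in IMX605 and -0.27 in IMX606). Of 30 small-subunit genes without one, 1 rose and 19 fell in IMX605 (median -0.37), and 1 rose and 15 fell in IMX606 (median -0.30). Between IMX605 and IMX606 the 8 genes sharing over 20% differed by a median of -0.05, and 0 of them were called by limma or by voom, or had an unadjusted p under 0.05.

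Among single-row genes with A and B copies, the largest falls in IMX605 were in RPL21, RPL26, RPL13, RPL9 and RPL16. RPL21A read 1168 and 1062 FPKM in IMX605, 1192 and 1105 in IMX606, and 1723 and 1634 in IMX372, and RPL21B 1199 and 1080.0 in IMX605, 1194 and 1114 in IMX606, and 1850.5 and 1607 in IMX372. Every single-locus library lay below both IMX372 libraries. RPL21A changed by -0.59 (SE 0.10, limma adjusted p = 0.00113) in IMX605 and -0.55 (SE 0.10, limma adjusted p = 0.00229) in IMX606, and RPL21B by -0.60 and -0.58. RPL26 sits at the mouth of the exit tunnel. RPL26B read 1169 and 1050.5 FPKM in IMX605, 1187 and 1159 in IMX606, and 1654 and 1691 in IMX372, and changed by -0.59 (SE 0.10, limma adjusted p = 0.000937) in IMX605 and -0.51 (SE 0.10, limma adjusted p = 0.003) in IMX606. RPL13B read 1649 and 1529 FPKM in IMX605, 1659 and 1556 in IMX606, and 2335 and 2372 in IMX372, and changed by -0.57 (SE 0.09, limma adjusted p = 0.0011) in IMX605 and -0.55 (SE 0.09, limma adjusted p = 0.00164) in IMX606. Its copy RPL13A changed by -0.49 and -0.41, of which the IMX606 call ended without DSE002 (-0.35). The calls of RPL21A, RPL21B, RPL26B and RPL13B held under every alternative run in both strains.

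Further falls were shared by both copies of RPL8 and of RPL17, a tunnel protein. RPL8A changed by -0.47 and -0.41 and RPL8B by -0.50 and -0.45, and the IMX606 calls of both ended without DSE001 (-0.31 and -0.39), and that of RPL8A also with median-of-ratios scaling (-0.36). RPL17A changed by -0.39 and -0.36 and RPL17B by -0.48 and -0.43. RPL17A lost its call in both strains without DSE001 (-0.39 and -0.36), without DSE002 (-0.38 and -0.36), and also without R7 in IMX605 (-0.32) and R8 in IMX606 (-0.30), where median-of-ratios scaling (-0.30) ended it too. RPL17B lost its IMX606 call without DSE002 (-0.43). RPL22A, whose protein is dispensable for growth, changed by -0.44 and -0.39, and its IMX606 call ended without R8 (-0.34) or DSE001 (-0.34) or with median-of-ratios scaling (-0.33). RPL22B did not pass, at -0.29 and -0.22, but was called in IMX605 without DSE001 (-0.44) or R8 (-0.29) and with equal sums (-0.33). RPL34B fell in IMX605, by -0.29, a call that ended without R12 (-0.33), R7 (-0.24), DSE001 (-0.29) or DSE002 (-0.28), and with median-of-ratios scaling (-0.25), no filter (-0.29) or no trend (-0.29).

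Genes with no paralog carry the whole supply of their protein, and 6 of the 9 such names fell in both strains, with 0 rises by limma, by voom, or at an unadjusted p under 0.05. Over all genes 15.0% fell in IMX605 and 12.8% in IMX606. With median-of-ratios scaling only RPL10 was still called in IMX606, and without DSE001 also 1 name. Without DSE002, R13 or R8, 2, 3 and 3 names fell there, 3 with no trend and 4 with no filter, and without R7 or DSE001, 3 fell in IMX605. RPL10 (chromosome XII, 261962 to 262627 on CEN.PK113-7D) encodes a protein near the peptidyl transferase centre that joins the subunit last, in the cytoplasm. It read 5595 and 5271 FPKM in IMX605, 5708 and 5513 in IMX606, and 8408 and 8066 in IMX372. The means were 5433 ± 229 and 5611 ± 138 FPKM against 8237 ± 241 (SD, n = 2 each), and both single-locus strains lay wholly below. It changed by -0.60 (SE 0.09, limma adjusted p = 0.000519) in IMX605 and -0.55 (SE 0.09, limma adjusted p = 0.00103) in IMX606, the largest fall of any single-row member in IMX605.

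RPL32 read 2479 and 2359 FPKM in IMX605, 2589 and 2437 in IMX606, and 3548 and 3187 in IMX372, and changed by -0.48 and -0.42. RPL30 read 2526 and 2282 FPKM in IMX605, 2545 and 2605 in IMX606, and 3254 and 3406 in IMX372, and changed by -0.47 and -0.37. RPL5, which carries the 5S rRNA into the subunit, read 3183 and 2816 FPKM in IMX605, 3186 and 3104 in IMX606, and 4233 and 3804 in IMX372, and changed by -0.42 and -0.35. In these genes too, no library of a single-locus strain reached the lower IMX372 value. RPL25, at the tunnel exit where nascent chain factors dock, read 2582 and 2402 FPKM in IMX605, 2646 and 2509.6 in IMX606, and 3331 and 3134 in IMX372, and changed by -0.38 and -0.33. RPL3, beside the peptidyl transferase centre, read 3314 and 2916 FPKM in IMX605, 3445 and 2839.6 in IMX606, and 4129.8 and 3912 in IMX372, and changed by -0.37 and -0.36. RPL28, known for mutations that give cycloheximide resistance, did not pass, at -0.25 and -0.22 (limma adjusted p = 0.0601 and 0.112). RPL38 gave 0.15 and 0.20 and did not pass either. RPL10 kept its call under every alternative in both strains, and RPL30 and RPL32 did so in IMX605.

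Several of these calls ended when a library was left out or a setting was changed. In IMX605, RPL5 lost its call without R7 (-0.33) or DSE001 (-0.35), RPL25 without R7 (-0.32) or DSE001 (-0.33), and RPL3 without R7 (-0.28), DSE001 (-0.33) or DSE002 (-0.41), and also with median-of-ratios scaling (-0.34), no filter (-0.37) or no trend (-0.37). In IMX606, RPL32 lost its call without DSE001 (-0.34), and RPL30 without R13 (-0.35), DSE001 (-0.40) or DSE002 (-0.34). RPL3 lost it without R8 (-0.22), DSE001 (-0.32) or DSE002 (-0.40). RPL25 lost it without any 1 of R13 (-0.36), R8 (-0.29), DSE001 (-0.28) and DSE002 (-0.37), and RPL5 likewise (-0.37, -0.33, -0.27 and -0.43). With no trend RPL3, RPL5 and RPL25 also lost their IMX606 calls, and with no filter RPL3 and RPL5 did, at the values given above. All of these values stayed below 0.

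None of the 5 stalk genes was called in either strain by limma, beside 30.0% of all genes in IMX605 and 23.9% in IMX606. At an unadjusted p under 0.05, 2 of them passed in each strain, where 2310 of all 5459 genes did in IMX605 and 2033 in IMX606. Voom called RPP2A in IMX605. RPP0, the anchor of the stalk, varied more between duplicates than between strains, at 2827 and 2212 FPKM in IMX605, 2962 and 1867 in IMX606, and 2687 and 2242 in IMX372. RPP1A read 5747 and 5024 FPKM in IMX605, 5758 and 4959 in IMX606, and 4398 and 4682 in IMX372, with differences of 0.24 and 0.24. RPP1B read 2116 and 1835 FPKM in IMX605, 2049 and 1899 in IMX606, and 2055 and 1949 in IMX372, with differences of -0.02 and -0.02. RPP1 and RPP2 proteins form the heterodimers bound to RPP0. RPP2A read 5442 and 4820.2 FPKM in IMX605, 5208 and 5085 in IMX606, and 4383 and 4230.4 in IMX372, with differences of 0.25 and 0.26. RPP2B read 6311 and 5479 FPKM in IMX605, 6222 and 6284 in IMX606, and 6299.8 and 6422 in IMX372, with differences of -0.11 and -0.02. For RPP1A and RPP2A all single-locus libraries exceeded both IMX372 libraries, whereas RPP0, RPP1B and RPP2B overlapped in IMX605. Over all genes, 31.5% lay wholly above in IMX605 and 25.7% in IMX606.

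**Figure D3:**
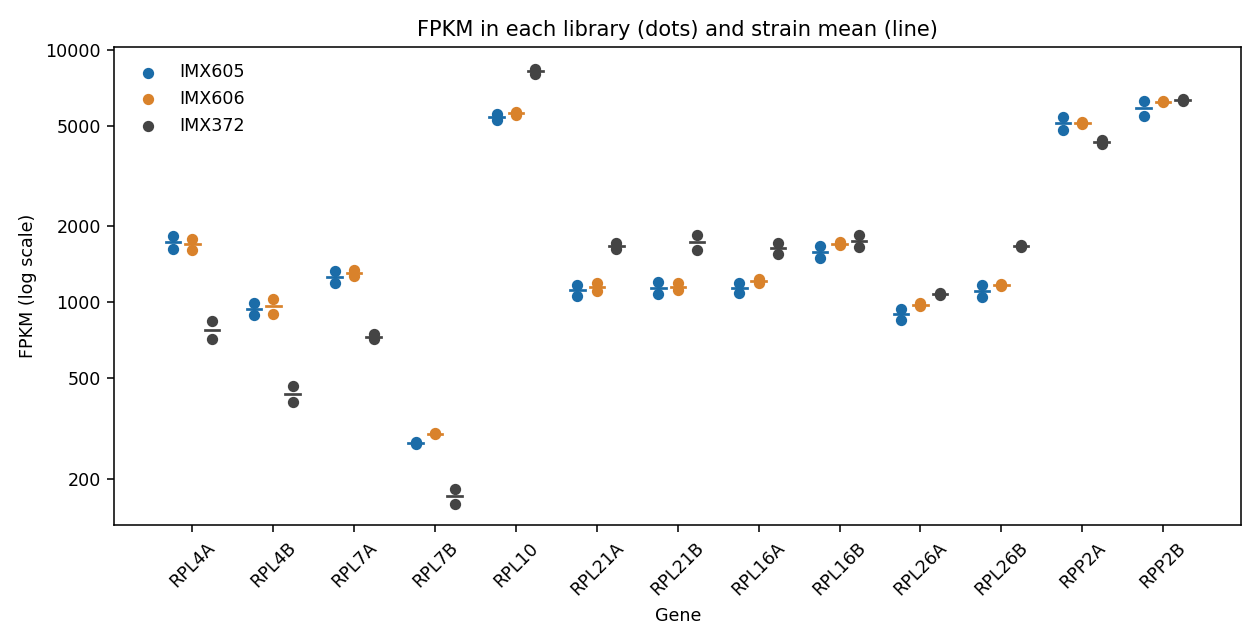
FPKM on a log scale in each library (dots) with the strain mean (line) for 13 genes named in the text, with IMX605 in blue, IMX606 in orange and IMX372 in grey. The 4 single-locus libraries lie above IMX372 for RPL4 and RPL7 and below it for RPL10, RPL21 and RPL26B.

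Whether A and B copies of a pair shifted against each other was tested on the log2(A/B) ratio itself, over the 35 A/B pairs of the table, 21 of them members. In IMX605, 5 of the 21 ratios were called and 7 had an unadjusted p under 0.05. Over all 35 pairs, members included, 12 (34.3%) were called and 15 had an unadjusted p under 0.05. In IMX606, 3 of 21 were called (6 unadjusted), beside 8 of the 35 pairs (22.9%, 14 unadjusted). In neither strain were members called more often than the pairs as a whole. Without R12 or R7, 3 were called in IMX605, and without DSE001 or DSE002, 5 and 8 in IMX606. Between IMX605 and IMX606 limma called 0 of 21, 1 had an unadjusted p under 0.05, and 0 of the 35 were called (2 unadjusted).

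RPL16, whose coding sequences differ most outside the stalk and RPL22, shifted towards B. RPL16A read 1189.5 and 1091 FPKM in IMX605, 1242 and 1198 in IMX606, and 1561 and 1725 in IMX372, and RPL16B 1669 and 1497 in IMX605, 1730.2 and 1683 in IMX606, and 1658 and 1845 in IMX372. The log2 ratios of A to B were -0.49 and -0.46 in IMX605, -0.48 and -0.49 in IMX606, and -0.09 and -0.10 in IMX372. The single-locus ratios lay apart from those of IMX372, with differences of -0.38 (SE 0.03, limma adjusted p = 0.0014) in IMX605 and -0.39 (SE 0.03, limma adjusted p = 0.000911) in IMX606. Per coding length, RPL16A supplied 37.9% in IMX605, 37.8% in IMX606 and 44.3% in IMX372. RPL16A fell by itself, at -0.53 and -0.43, and its IMX606 call ended without DSE002 (-0.36). RPL16B did not pass, at -0.15 and -0.04.

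RPL26 shifted the other way, towards A. RPL26A read 940.2 and 854 FPKM in IMX605, 990.2 and 963 in IMX606, and 1066 and 1085 in IMX372, beside the values of RPL26B above. The log2 ratios were -0.31 and -0.30 in IMX605, -0.26 and -0.27 in IMX606, and -0.63 and -0.64 in IMX372, and differed by 0.33 (SE 0.03, limma adjusted p = 0.0014) and 0.37 (SE 0.03, limma adjusted p = 0.000911). The A copy supplied 40.6% in IMX605, 41.3% in IMX606 and 35.3% in IMX372. RPL26A itself did not pass, at -0.26 and -0.14, although equal sums (-0.30), quantile normalization (-0.35) and voom (-0.26) called it in IMX605. The ratio calls of RPL16 and RPL26 held under every alternative run.

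RPL9 lies near the base of the stalk. RPL9A read 2287 and 1976 FPKM in IMX605, 2382 and 2036 in IMX606, and 3259 and 2937 in IMX372, and RPL9B 1843 and 1884 in IMX605, 1749 and 1824 in IMX606, and 2052 and 1909.8 in IMX372. RPL9A changed by -0.54 and -0.49, calls that ended without DSE001 (-0.47 and -0.42) and, in IMX606, with median-of-ratios scaling (-0.44), and RPL9B by -0.09 and -0.15, which did not pass. The ratio differed by -0.45 (SE 0.12, limma adjusted p = 0.0402) in IMX605, a call that ended without R12 (-0.57), R7 (-0.33), DSE001 (-0.43) or DSE002 (-0.48). In IMX606 it differed by -0.34 (SE 0.12, limma adjusted p = 0.108) and was called without R13 (-0.49) or with quantile normalization (-0.45). The duplicates of the single-locus strains differed more in this ratio than those of IMX372, at 0.31 and 0.07 in IMX605, 0.45 and 0.16 in IMX606, and 0.67 and 0.62 in IMX372.

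The stalk pairs RPP2 and RPP1 were called towards A, RPP2 in both strains and RPP1 in IMX605 alone, and none of these calls held with quantile normalization. The RPP2 log2 ratios were -0.21 and -0.18 in IMX605, -0.26 and -0.31 in IMX606, and -0.52 and -0.60 in IMX372, and differed by 0.36 (SE 0.04, limma adjusted p = 0.00284) in IMX605 and 0.28 (SE 0.04, limma adjusted p = 0.00787) in IMX606. The RPP1 ratios were 1.44 and 1.45 in IMX605, 1.49 and 1.38 in IMX606, and 1.10 and 1.26 in IMX372, and differed by 0.27 (SE 0.07, limma adjusted p = 0.0402) and 0.26 (SE 0.07, limma adjusted p = 0.057). These RPP1 ratios are per whole gene span and do not show that A exceeds B to that extent. Per coding length, RPP1A supplied 52.2% of the pair in IMX605, 52.1% in IMX606 and 47.6% in IMX372. Quantile normalization ended the calls of RPP2 in both strains (0.16 and 0.22) and of RPP1 in IMX605 (0.06). The RPP1 call in IMX605 also ended without R12 (0.27), R7 (0.26) or DSE001 (0.18), and in IMX606 leaving out DSE002 made one (0.34). RPL24, which bridges the subunits, had the next largest shift in IMX605. It differed by -0.21 (SE 0.07, limma adjusted p = 0.0987) and -0.14 (SE 0.07, limma adjusted p = 0.208), which did not pass. RPL24A read 3141 and 2978 FPKM in IMX605, 3301 and 3069.8 in IMX606, and 3300.2 and 3902 in IMX372, and RPL24B 2568 and 2336 in IMX605, 2707 and 2191 in IMX606, and 2319 and 2677 in IMX372, with overlap between strains for RPL24B.

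**Figure D4:**
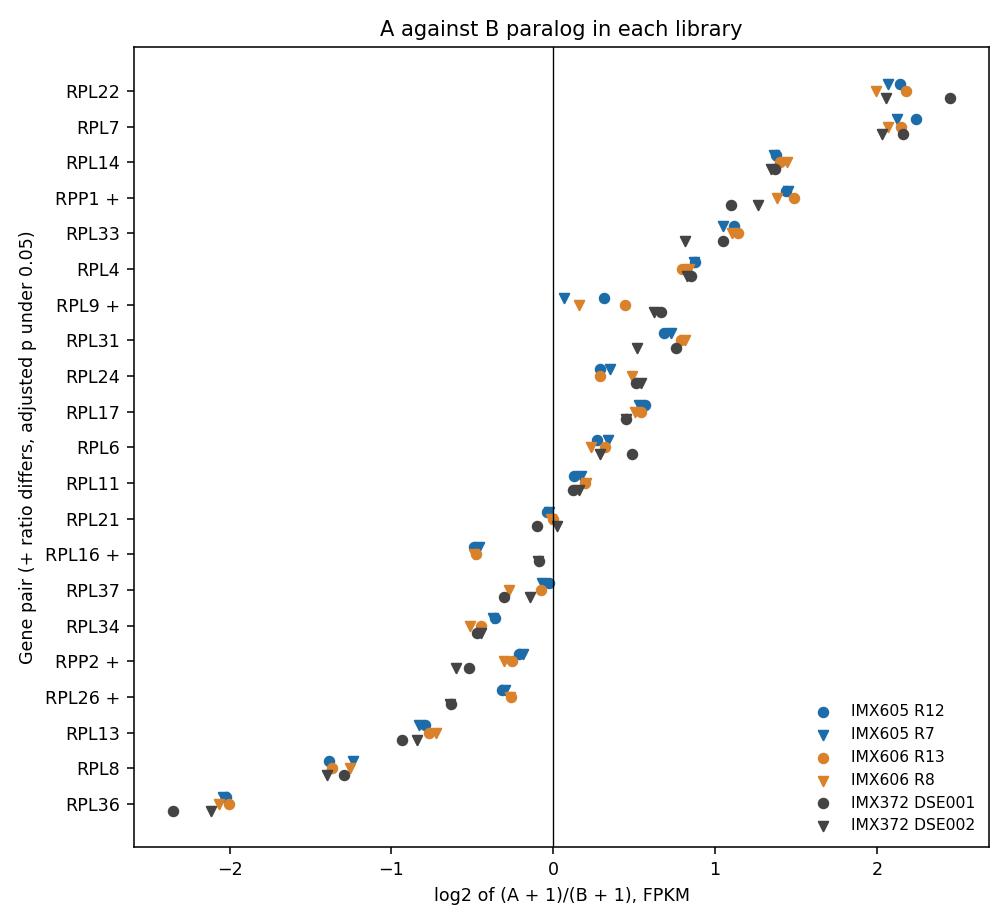
Log2 of (A + 1)/(B + 1) in FPKM for 21 gene pairs in each of the 6 libraries (blue IMX605, orange IMX606, grey IMX372; circle and triangle are the duplicates), ordered by the IMX372 mean. The single-locus libraries stand apart from IMX372 for RPL16, RPL26 and RPP2, and also for RPL9, RPL13, RPL17, RPL24, RPL33, RPL36 and RPP1. All 6 lie close together for RPL4, RPL14 and RPL8, although for RPL14 both IMX606 libraries lie above IMX372.

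The remaining 15 ratios were not called in either strain. Per coding length, the A copy supplied from 20.6% of the pair (RPL36 in IMX372) to 84.2% (RPL22 in IMX372). For RPL7 the A copy supplied 83.9% in IMX605, 83.1% in IMX606 and 83.0% in IMX372, and for RPL4 64.7% in IMX605, 63.8% in IMX606 and 64.2% in IMX372. The RPL4, RPL7, RPL11 and RPL14 ratios differed from IMX372 by -0.02 to 0.09 over both strains, while the rises of their sums were 1.14, 0.77, 0.39 and 0.33 for IMX605, and 1.13, 0.83, 0.43 and 0.41 for IMX606.

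Summing each pair takes out how reads were divided between its copies, but not a loss of reads that match both. Whether such reads were left out of the counts is not given, so the sums of pairs with much shared sequence stay uncertain too. With all pairs summed in the table, 4 of the 21 sums rose and 8 fell in IMX605, where 15.0% and 14.7% of all 5424 features did so. In IMX606, 4 rose and 7 fell, beside 11.0% and 12.7%. The rises were RPL4, RPL7, RPL11 and RPL14 in both. The falls were RPL8, RPL9, RPL13, RPL17, RPL21, RPL22 and RPL26 in both, and RPL16 in IMX605 (-0.32, against -0.21 in IMX606). RPL21 sums fell most, with differences of -0.60 and -0.56, and the sum of RPP2 differed by 0.04 and 0.10. With median-of-ratios scaling 3 sums fell in IMX606. Without R12, DSE001 or DSE002, 2 sums rose in IMX605, and without R7, 4 fell. In IMX606, 2 rose without DSE001 or DSE002, and 3, 2 and 3 fell without R8, DSE001 and DSE002.

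The summed level of the 51 members was 109297 and 99092 FPKM in IMX605, 110992 and 102404 in IMX606, and 114677 and 115383 in IMX372. Both single-locus strains lay below IMX372, with differences of -9.42% and -7.24% of its mean and an exact 2-sided permutation p of 0.333, the smallest that 2 libraries against 2 allow. The 41 members without a near-identical copy differed by -12.4% and -10.4%, and the 10 with one by 15.7% and 19.3%, in IMX605 and IMX606, at the same exact permutation p. R12 and R13 had higher sums than R7 and R8. For the small subunit, 1 of 34 single-row genes rose and 21 fell in IMX605 (median -0.37), and 1 rose and 17 fell in IMX606 (median -0.30). The difference between the subunits was not tested.

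The 12 names with 2 rows each cover loci that S288C names as A and B: by their neighbouring genes, 12 of the rows match the A locus and 12 the B locus. The 2 rows named RPL1B, for instance, lie on chromosome VII between MRM2 and PCL10, the RPL1B neighbourhood, and on chromosome XVI between FLC1 and PCL8, the RPL1A neighbourhood. RPL1 forms the mobile L1 stalk. The row on chromosome VII read 2857 and 2552 FPKM in IMX605, 2873 and 2847 in IMX606, and 1215 and 1255 in IMX372, and that on chromosome XVI 1352 and 1194 in IMX605, 1329 and 1313 in IMX606, and 604 and 629 in IMX372. No library of the single-locus strains overlapped with IMX372, with differences of 1.13 and 1.21 and of 1.04 and 1.10.

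Of the 24 rows, 7 rose and 7 fell in IMX605, and 7 rose and 5 fell in IMX606, where 15.0% of all genes rose and 15.0% fell in IMX605, and 11.1% rose and 12.8% fell in IMX606. The other rises were both rows of RPL35B, a tunnel exit protein (0.97 and 1.00, and 1.13 and 1.13), both rows of RPL42B (0.56 and 0.65, and 0.53 and 0.59) and the chromosome XVI row of RPL43B (0.40 and 0.41). The S288C coding sequences of these pairs are 99.4% (RPL1), 99.2% (RPL35), 98.1% (RPL42) and 89.6% (RPL43) identical, and 81.0% (RPL1), 80.6% (RPL35), 47.8% (RPL42) and 0% (RPL43) of their coding words of 50 bases are shared. RPL2B and RPL18B also have a near-identical copy and did not rise. The RPL2 sequences are 96.3% identical with 28.4% of words shared, and the RPL2B rows gave 0.07 and 0.12 on chromosome VI and -0.05 and 0.05 on chromosome IX, which did not pass. The RPL18 sequences are 95.4% identical with 14.8% of words shared, and the RPL18B row on chromosome XV fell in IMX605 (-0.34) and gave -0.25 in IMX606, while that on chromosome XIV gave -0.18 and -0.04 and did not pass. In all, of the 10 rows with a near-identical copy, 6 rose and 1 fell in IMX605, and 6 rose and 4 did not pass in IMX606. Of the 14 without, 1 rose and 6 fell in IMX605, and 1 rose and 5 fell in IMX606. The falls included both rows of RPL20B (-0.47 and -0.41, and -0.53 and -0.50) and of RPL27A (-0.42 and -0.33, and -0.38 and -0.33), and the chromosome XII row of RPL15B (-0.49 and -0.50). The RPL15B rows were the most unequal, with 3967 and 3649 FPKM in IMX605, 4032 and 3561 in IMX606, and 5442 and 5245 in IMX372 on chromosome XII and 103 and 112 in IMX605, 108 and 94.3 in IMX606, and 102 and 98.8 in IMX372 on chromosome XIII.

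Between IMX605 and IMX606, limma called 0 of the 51 members, 0 had an unadjusted p under 0.05 and voom called 0, where 0.202% of all genes were called, 0.0733% higher and 0.128% lower. None of the 21 pair sums was called either (0 by limma), where 0.0737% of all features were higher and 0.129% lower. The median difference of IMX605 minus IMX606 was -0.05, within a range of -0.12 to 0.28 over the members. The 2 libraries of one strain lay apart from those of the other for 10 members, 1 above and 9 below in IMX605, where all genes gave 15.7% above and 12.7% below. RPL6, a structural protein, differed most. RPL6A read 1037 and 939 FPKM in IMX605, 1045 and 635 in IMX606, and 904 and 923 in IMX372, and RPL6B 859 and 744 in IMX605, 838 and 540.0 in IMX606, and 644 and 754 in IMX372. R8 was the lowest library for both genes, and its duplicate R13 stood near the others. Leaving out R13, so that R8 alone stood for IMX606, gave differences of 0.64 for RPL6A and 0.57 for RPL6B, which rest on that library.

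The pathway list of genes that regulate, escort, modify or assemble large-subunit proteins held 35 genes with a row out of 37. In IMX605, 1 rose and 14 fell, and in IMX606 1 rose and 8 fell, with medians of -0.26 and -0.22, beside 15.0% higher and 15.0% lower over all genes in IMX605 (median -0.03) and 11.1% and 12.8% in IMX606 (median -0.06). Among 10 regulators, SCH9, the kinase through which TOR complex 1 acts on ribosome production, read 70.4 and 62.6 FPKM in IMX605, 71.6 and 61.0 in IMX606, and 44.8 and 36.6 in IMX372, and changed by 0.70 (SE 0.13, limma adjusted p = 0.00258) in IMX605 and 0.69 (SE 0.13, limma adjusted p = 0.00336) in IMX606. CRF1, a corepressor that opposes Ifh1 at these promoters in some strain backgrounds, read 4.18 and 4.02 FPKM in IMX605, 3.91 and 4.30 in IMX606, and 8.38 and 8.88 in IMX372, and changed by -0.92 (SE 0.16, limma adjusted p = 0.00153) in IMX605 and -0.92 (SE 0.16, limma adjusted p = 0.00188) in IMX606. The groups of both genes were apart. RAP1 was called in IMX605, at -0.36 (limma adjusted p = 0.042), and gave -0.15 in IMX606. FHL1 gave -0.07 and 0.04, IFH1 0.31 and 0.34 and SFP1 0.05 and 0.03, none of which passed.

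Of 15 genes for late maturation and export of the subunit, 8 fell in IMX605 and 5 in IMX606, and 0 rose by limma. NMD3, the export adaptor, changed by -0.54 and -0.40, ARX1, an export factor, by -0.59 and -0.40, and YVH1, which releases Mrt4 so that the stalk can form, by -0.51 and -0.49. HPM1, the methyltransferase of RPL3, read 58.2 and 57.3 FPKM in IMX605, 58.6 and 58.4 in IMX606, and 86.4 and 88.3 in IMX372, and changed by -0.59 and -0.57; 3 of the 7 modifying enzymes fell in IMX605 and 2 in IMX606. Of the 3 dedicated chaperones with a row, SQT1, which escorts RPL10, fell in IMX605 (-0.38) and gave -0.18 in IMX606, where it did not pass. TIF6, MRT4 and RLP24 did not pass in either strain.

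The 500 bases before each start codon of the S288C reference were searched for a Rap1-type word, CACCCNNACA, on both strands. It was found for 12 of the 51 single-row members (23.5%), for 18 of the 81 large-subunit names (22.2%) and for 134 of 6021 protein-coding genes (2.23%). Members with a near-identical copy held it in 3 of 10 cases (30.0%) and those without in 9 of 41 (22.0%). Windows of 30 bases are shown for RPL7A, which rose, and for RPL13B and RPL25, which fell, each read 5′ to 3′ on the strand of the gene with the word or its reverse complement in capitals. RPL13B was the only single-row member with more than 1 word. The windows lie at RPL13B chrXIII:551520-551549 (minus strand, 332 bases before the start codon), RPL13B chrXIII:551610-551639 (minus strand, 422 bases before the start codon), RPL25 chrXV:79940-79969 (plus strand, 398 bases before the start codon), RPL7A chrVII:366229-366258 (minus strand, 252 bases before the start codon), in R64.
RPL13B: gtacattacgCACCCATACAtttatagttt
RPL13B: gattttataaTGTATGGGTGccaatatgta
RPL25: ttatttaataTGTACGGGTGtttacatgga
RPL7A: atcatataaaCACCCACACAtatctataaa
The word was thus present both before genes that rose and before genes that fell, and a match here is a description of letters, not of binding.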

How the data were processed

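Polyadenylated RNA of 6 yeast libraries, 2 per strain, was used. Hot-phenol RNA went into stranded TruSeq libraries for Illumina sequencing, per the labels' protocols. Tools listed in the submitters' processing notes, without roles, are the aligner STAR (2.5.4a), DESeq2, edgeR, featureCounts and SAMtools. The sources used here do not give the treatment of reads that match several genes. The values are FPKM as deposited by the authors, per length of the whole gene span (100% of rows), with CEN.PK113-7D coordinates. All values (100%) were whole multiples of 1 read at a tolerance of 0.01, which gave the reads on genes. The floor of 3 reads covers counting error only. Standard errors are from the limma fit over libraries, and SDs are over the 2 libraries of a strain.

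Values of the 5459 genes averaging 1 FPKM or more were fitted as log2(FPKM + 1), with 3 strain means and an intensity trend, by limma 3.58.1 under R 4.3.3 (residual degrees of freedom 3, prior 8.38, median residual SD 0.116), with Benjamini-Hochberg adjustment over all genes. The log2(A/B) ratio was fitted likewise over 35 pairs, and pairs were summed for a further fit over 5424 features. The table holds FPKM, so the tests planned for counts were not used, and voom on recovered reads was an alternative. Also tried were no filter or one at a mean of 5 FPKM, pseudocounts of 0.1 or 5, median-of-ratios factors, equal sums, quantile normalization, only the 2 strains compared, no trend, each library left out, and only members without a near-identical copy. The share of 100-base words was added after seeing the data.

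Sequences, introns, copies (95% identity over 200 bases, BLAST 2.17.0; shared words of 50 bases) came from the S288C R64 reference, which is not the authors' genome, so no coordinates were carried over. All 75 member rows matched an S288C name. The members and lists were chosen with earlier results of these data known. Values by library are given for the 5 largest rises and falls, the stalk, the 6 pairs with the largest ratio change, called genes without a paralog, and the 3 highest and 3 lowest members. Tables and figures used Python 3.11.15 with Biopython 1.88, matplotlib 3.10.9, scipy 1.17.1, pandas 2.3.3 and numpy 2.4.6.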

Additional observations from a re-analysis of the deposited data

How the results depend on the processing

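Each of the 61 called results kept its direction in all 960 values under alternatives, and 94 of these values fell short of the threshold. Part of this was fixed in advance. The filters, no trend, only the 2 strains compared, and leaving out a library of the third strain cannot change a difference, only its p. The count of kept directions is therefore no measure of support. Of the 27 calls in IMX605 against IMX372, 17 held under every alternative, and of the 26 in IMX606, 10. Restricting to members without a near-identical copy left 0 rises in both strains and moved the IMX605 median to -0.26. Quantile normalization moved that median to -0.27. Median-of-ratios factors left 9 falls, a median of -0.11 and 3 falling sums in IMX606. With each library left out in turn, IMX605 gave 4 to 9 rises, 14 to 20 falls, a median of -0.24 to -0.14, 3 to 6 changed ratios, and 2 to 4 rising and 4 to 8 falling sums. IMX606 gave 5 to 9 rises, 8 to 18 falls, a median of -0.23 to -0.12, 3 to 8 changed ratios, and 2 to 4 rising and 2 to 8 falling sums. Between IMX605 and IMX606, leaving out a library gave 0 to 2 rises, a median of -0.10 to 0.020 and 0 to 1 rising sums.

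Some genes that did not pass changed sign. Median-of-ratios factors gave 0.010 for RPL24B and 0.013 for RPP1B in IMX605, and 0.019 for RPL16B, 0.021 for RPL24B, 0.033 for RPP1B and 0.029 for RPP2B in IMX606. Quantile normalization gave 0.061 for RPL16B in IMX606, 0.013 for RPP1B and -0.0029 for RPP0 in IMX605, and equal sums gave -0.011 for RPP0 there. With 1 library left out, values in IMX605 ran from -0.13 to 0.079 for RPL24B, -0.15 to 0.20 for RPP0 and -0.13 to 0.081 for RPP1B. Those in IMX606 ran from -0.11 to 0.042 for RPL16B, -0.19 to 0.12 for RPL24B, -0.39 to 0.27 for RPP0 and -0.075 to 0.034 for RPP1B. The cause was not tested. No paired analysis was possible because the columns carry no replicate number. The share of 100-base words, added after seeing the data, was 17.3% to 53.3% in the 8 single-row genes that rose and 0% to 2.31% in the other single-row members. With 2 libraries per strain and a median residual SD of 0.116, small differences were not detectable at this depth of replication.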
